A study of Mus musculus with 4 samples.

Results

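The cytokine and chemokine genes that B cells can use to signal to other cells were followed by RNA-seq in splenic follicular B cells with and without the transcription factor Ets1. The 10 genes were chosen by name as secreted or membrane-bound mediators that B cells can make, out of 23305 genes with a value in every library. Earlier results of these data were known when they were chosen. They are the chemokines Ccl22, Ccl3, Ccl4, Ccl5 and Cxcl10, the interleukins Il6 and Il10, the tumour necrosis factor family ligands Tnf and Ltb, and the growth factor Tgfb1. The cells came from spleens of female mice, 2 WT samples of the C57BL/6 strain and 2 Ets1-/- samples of the mixed C57BL/6 x 129Sv background, and the methods call the samples of a genotype biological replicates. Cells were gated as quiescent follicular B cells, which carried B220, were high for CD23 and low for CD21, and lacked CD80 and switched immunoglobulins. No cells were stimulated. The Ets1 mutation was present in every cell of the mutant mice, not in B cells alone, and strain and genotype cannot be told apart in these 4 libraries. The sources used here do not say whether a sample pooled several animals, nor how old the mice were.

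Chemokines are small secreted proteins that draw cells carrying the matching receptor. Ccl3, Ccl4 and Ccl5 draw T cells, NK cells and monocytes to inflamed tissue, Ccl22 acts on Ccr4, which regulatory and helper T cells carry, and Cxcl10 acts on Cxcr3 of activated T and NK cells. An activated B cell can use these proteins to attract T cells. Among the cytokines, lymphotoxin beta on the B cell surface maintains the stromal cells of the follicle, Tnf and Il6 promote inflammation, and Il10 and Tgfb1 restrain it. Tgfb1 is made as an inactive complex and also directs B cells towards IgA.

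Expression was measured in FPKM, fragments scaled to transcript length and to the mapped reads of the library, so levels of different genes can be set side by side. Each gene whose mean reached 1 FPKM in WT or in Ets1-/- was tested with limma on the log2(FPKM + 1) scale, with Benjamini-Hochberg adjustment over all 10949 such genes. A gene was called changed at a log2 difference of at least 1 in either direction and an adjusted p of 0.05 or less. All log2 differences below are Ets1-/- minus WT on that scale, on which changes of weakly expressed genes come out too small. Of the 10 mediators, 7 passed the filter on low values and 3 (Cxcl10, Il10 and Il6) did not. Ccl22 was called higher in Ets1-/- B cells, Ccl3 and Ccl4 were called lower, and 4 tested mediators were not called. Over all tested genes 1.70% were called, 0.877% as higher and 0.822% as lower. The median log2 difference was -0.26 over the 7 tested mediators and -0.02 over all tested genes. The libraries of the genotypes did not overlap for 3 of the 7 tested mediators, which was the case for 41.6% of all tested genes. An unadjusted p under 0.05 was found for the same 3, and for 13.3% of all tested genes. Since the mediators were chosen with earlier results of these data known, these shares are a description and not a test.

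**Figure D1:**
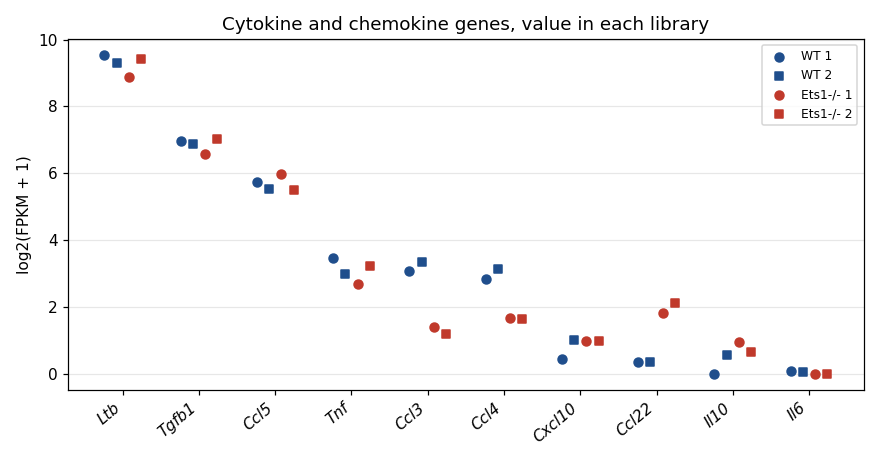
The vertical axis gives log2(FPKM + 1) of each of the 10 mediators, ordered by WT level, with 1 point for each of the 2 WT (blue) and 2 Ets1-/- (red) libraries. Both Ets1-/- points of Ccl22 lie above the WT points and both of Ccl3 and Ccl4 lie below them, while the points of Ccl5, Tnf, Ltb and Tgfb1 overlap.

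The libraries had relative depths of between 0.876 and 1.75, with 1 deeper and 1 shallower library in each genotype, and the replicates differed more in Ets1-/- (median absolute log2 difference over tested genes 0.26) than in WT (0.13). Read counts are not part of the files, so no counting interval is given. Ets1 itself had 231 and 275 FPKM in WT and 229 and 229.8 FPKM in Ets1-/-. The value covers the whole gene, and the study describes only part of it as targeted, so it does not check the labels. Of the B cell identity genes 10 were found and 0 were called (0 with an unadjusted p under 0.05), with a summed level of 6857 to 7190 FPKM in WT and 5745 to 6883 FPKM in Ets1-/-. Of 13 neutrophil genes 3 were called higher and 11 had an unadjusted p under 0.05, all higher, with sums of 99.3 to 122 FPKM in WT and 720.2 to 2619.5 FPKM in Ets1-/-. Among those 11, Mmp8, Mmp9, Elane and Mpo passed the filter on low values only through their Ets1-/- level. In such bulk samples fewer cells of a type and less RNA per cell cannot be told apart.

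The start regions of the 2 chemokine genes with the largest called differences are shown because Ets1 binds DNA at an A or T following a GGA core. They are from the 250 bases before the transcription start in RefSeq (GRCm38.p6), which matched the mm9 genome at exactly 1 place each. The Ccl22 stretch was cut at the gene start of GENCODE M1, an annotation of mm9, so 156 of its 250 bases are shown. From the RefSeq start, the marked letters begin at -115 for Ccl22 and at -209 for Ccl3. Capitals mark GGAAGT or its reverse complement ACTTCC, the 6 letters searched on both strands.
Ccl22, mm9 chr8:97269334-97269489, plus strand: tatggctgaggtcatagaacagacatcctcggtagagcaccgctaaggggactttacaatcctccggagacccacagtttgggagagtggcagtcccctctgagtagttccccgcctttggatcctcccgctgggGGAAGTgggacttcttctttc
Ccl3, mm9 chr11:83462881-83463130, minus strand: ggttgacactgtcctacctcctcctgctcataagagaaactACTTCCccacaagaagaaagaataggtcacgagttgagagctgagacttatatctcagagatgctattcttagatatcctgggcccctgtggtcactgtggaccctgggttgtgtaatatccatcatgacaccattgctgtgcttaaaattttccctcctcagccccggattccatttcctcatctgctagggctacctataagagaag
Of the 10 mediators, 7 were in the RefSeq promoter table, and the 250 bases before the start held these letters in 4 of them (Ccl22, Ccl3, Cxcl10 and Tnf). Of all 32851 promoters listed by RefSeq there, 6485, or 19.7%, held them in a window of that length. The letters were chosen with these sequences in view, and a match is a description of the sequence, not evidence of binding.

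Ccl22 draws T cells that carry Ccr4 and is made by activated B cells, dendritic cells and macrophages. It lies on mm9 chromosome 8 at 97269490 to 97275599 on the plus strand. Its level was 0.263 and 0.283 FPKM in the WT libraries and 2.49 and 3.33 FPKM in the Ets1-/- libraries. Both Ets1-/- libraries were thus far above both WT libraries, in which the gene was barely detected. The mean rose from 0.273 ± 0.0143 (SD, n = 2) to 2.91 ± 0.599 FPKM (SD, n = 2), a ratio of 10.7. The log2 difference was 1.61 with a standard error of 0.18 (95% confidence interval 1.15 to 2.07, adjusted p = 0.0266 by limma with Benjamini-Hochberg adjustment). The gene was selected by the filter only through its Ets1-/- level. The call was lost without WT replicate 1 (adjusted p = 0.0799), WT replicate 2 (0.0686) or Ets1-/- replicate 2 (0.0642) in the limma fits to 3 libraries, and with no filter on low values (0.0527), with the log2 difference between 1.45 and 1.77.

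Ccl22 shares its place on chromosome 8 with chemokine genes Ccl17, whose product binds the same receptor, and Cx3cl1. Ccl17 was listed at 0 and 0.0864 FPKM in WT and at 0.182 and 0 FPKM in Ets1-/-, so it was near 0 in all 4 libraries. Of the 7 genes within 100 kb of Ccl22, 4 were tested and 0 were called by limma. Ciapin1, one of them, had 8.69 and 9.06 FPKM in WT and 12.2 and 14.6 FPKM in Ets1-/- (log2 difference 0.54, limma adjusted p = 0.199).

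Dendritic cells and macrophages also make Ccl22, so their markers are given beside it. Of 9 dendritic cell genes 4 were tested and 1, Cd209a, was called higher, at 0.880 and 0.586 FPKM in WT and 3.28 and 3.60 FPKM in Ets1-/- (limma adjusted p = 0.0355). Cd209a passed the filter on low values only through its Ets1-/- level. Itgax, the other tested gene with an unadjusted p under 0.05 by limma, had 1.18 and 1.10 FPKM in WT and 1.92 and 1.96 FPKM in Ets1-/-. Both Ets1-/- libraries were above both WT libraries for 5 of the 9 genes and below them for 0. Over all tested genes, the genotypes did not overlap for 41.6%. That share leaves out untested genes, and Zbtb46, Xcr1 and Clec9a among the 5 were not tested. The list summed to 6.08 to 8.12 FPKM in WT and 12.0 to 12.3 FPKM in Ets1-/-, and no listed gene was at 0 in all libraries. Zbtb46, which defines conventional dendritic cells, lay at 0.533 and 0.543 FPKM in WT and at 0.557 and 0.558 FPKM in Ets1-/-, and Clec9a did not exceed 0.224 FPKM in any library. Of 12 monocyte and macrophage genes 9 were tested and 1, Emr1, was called higher, at 2.35 and 2.63 FPKM in WT and 23.5 and 37.2 FPKM in Ets1-/- (limma adjusted p = 0.00969). That list summed to 33.2 to 68.3 FPKM in WT and 97.6 to 155 FPKM in Ets1-/-. Lyz2, also higher in both Ets1-/- libraries, had 42.2 and 18.0 FPKM in WT and 102 and 45.7 FPKM in Ets1-/-. Lyz2 and Emr1 were then left out, a choice made after the values were seen that favoured an overlap. The other 10 genes summed to 23.8 and 12.6 FPKM in WT and 29.1 and 14.6 FPKM in Ets1-/-, which overlapped. Among those, Csf1r, the receptor that defines the lineage, had 2.35 and 0.999 FPKM in WT and 1.86 and 0.876 FPKM in Ets1-/-, and Cd68 overlapped as well. Of 7 genes of activated B cells 6 were tested and 0 were called (1 with an unadjusted p under 0.05, Cd83, higher), with sums of 304 and 498 FPKM in WT and 791 and 557 FPKM in Ets1-/-. The part of any of these cells in the Ccl22 difference was not tested.

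Ccl3 and Ccl4, the macrophage inflammatory proteins that draw T cells, NK cells and monocytes, were lower in Ets1-/- B cells. Ccl3 had 7.37 and 9.05 FPKM in WT and 1.63 and 1.28 FPKM in Ets1-/-. Ccl4 had 6.18 and 7.81 FPKM in WT and 2.16 and 2.12 FPKM in Ets1-/-. For both genes the lower WT library was well above the higher Ets1-/- library. The mean of Ccl3 was 8.21 ± 1.18 FPKM in WT and 1.46 ± 0.249 FPKM in Ets1-/- (SD, n = 2 each), a WT level 5.63 times that of Ets1-/-. Its log2 difference was -1.90 with a standard error of 0.17 (95% confidence interval -2.35 to -1.46, limma adjusted p = 0.0144). Ccl4 averaged 6.99 ± 1.15 FPKM in WT and 2.14 ± 0.0317 FPKM in Ets1-/- (SD, n = 2 each), a WT level 3.27 times that of Ets1-/-. The log2 difference of Ccl4 was -1.34 with a standard error of 0.17 (95% confidence interval -1.77 to -0.92, limma adjusted p = 0.0349).

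Both falls kept their direction in the limma fits to 3 libraries, with log2 differences of -2.04 to -1.77 for Ccl3 and -1.49 to -1.19 for Ccl4. The call for Ccl3 was lost without WT replicate 2 (adjusted p = 0.0575), Ets1-/- replicate 1 (0.0721) or Ets1-/- replicate 2 (0.0807), and that for Ccl4 was lost without WT replicate 1 (0.104), WT replicate 2 (0.176), Ets1-/- replicate 1 (0.118) or Ets1-/- replicate 2 (0.121). With no filter on low values the adjusted p was 0.0565 for Ccl3 and 0.0948 for Ccl4.

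**Figure D2:**
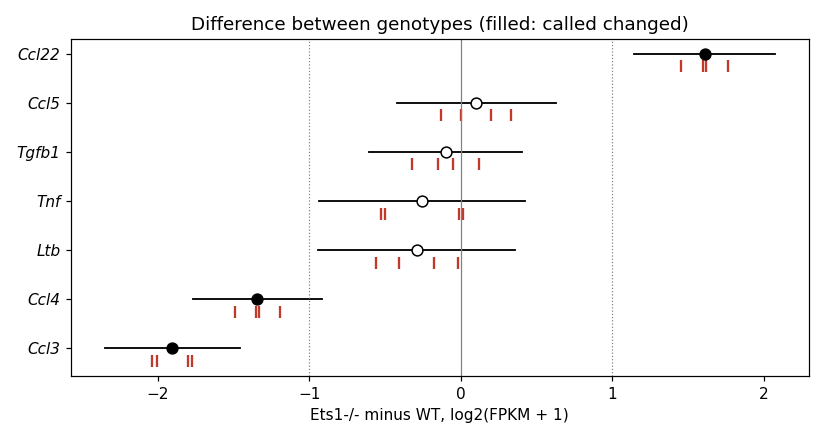
The horizontal axis gives the difference, Ets1-/- minus WT, in log2(FPKM + 1) for the 7 tested mediators, as circles (filled where called) with 95% confidence intervals from limma, red ticks for the fits without 1 library and dotted lines at a difference of 1 in either direction. The intervals of Ccl22, Ccl3 and Ccl4 lie away from 0, and those of Ccl5, Tnf, Ltb and Tgfb1 include it.

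Ccl3 and Ccl4 are neighbours on chromosome 11, with Ccl3 at 83461346 to 83462857 on the minus strand and Ccl4 at 83476086 to 83478185 on the plus strand, 13229 bases apart. Within a library the ratio of Ccl3 to Ccl4 was 1.19 and 1.16 in WT and 0.756 and 0.605 in Ets1-/-. Ccl3 was thus the higher of the pair in both WT libraries and the lower in both Ets1-/- libraries. Of the 5 genes within 100 kb of Ccl3, 4 were tested and Ccl4 was the 1 called lower, and of the 6 such genes of Ccl4, 5 were tested and Ccl3 was the 1 called lower. At 97585 bases from Ccl3, 1100001G20Rik had 4.21 and 2.98 FPKM in WT and 32.7 and 16.3 FPKM in Ets1-/- (log2 difference 2.41, standard error 0.35, limma adjusted p = 0.0509). It lay higher in both Ets1-/- libraries without passing the threshold. It was called under 5 of 13 alternatives, among them the replicate block (limma adjusted p = 0.00118). Another of these was a crossed pairing of replicates chosen after the data were seen (0.000102). In the other fits to all 4 libraries the limma adjusted p ran from 0.0293 to 0.107. The chemokine gene Ccl6 had 3.12 and 0.826 FPKM in WT and 1.07 and 0.783 FPKM in Ets1-/-, so its groups overlapped.

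Ccl5, which draws T cells and monocytes, lies 117326 bases from Ccl3 on chromosome 11, at 83339280 to 83344020 on the minus strand. It had 52.0 and 45.0 FPKM in WT and 61.3 and 44.1 FPKM in Ets1-/-. The WT libraries lay between the Ets1-/- libraries. The log2 difference was 0.10 with a standard error of 0.21 (95% confidence interval -0.42 to 0.63, limma adjusted p = 0.925), and it was -0.13 without Ets1-/- replicate 1. The level of Ccl3 relative to Ccl5 was 0.142 and 0.201 in WT and 0.0266 and 0.0290 in Ets1-/-, and that of Ccl4 relative to Ccl5 was 0.119 and 0.173 in WT and 0.0352 and 0.0480 in Ets1-/-. Within each library, then, the 3 chemokines stood in different proportions in the 2 genotypes. Of the 8 genes within 100 kb of Ccl5, 3 were tested and 0 were called.

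**Figure D3:**
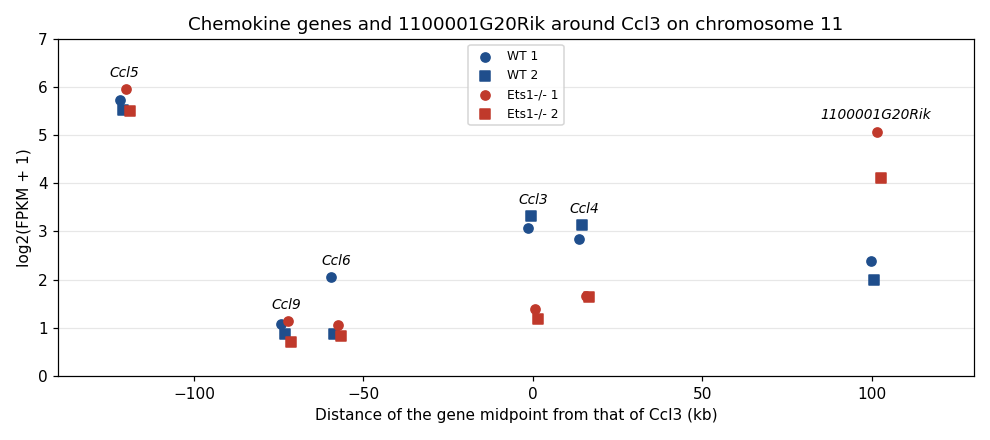
The vertical axis gives log2(FPKM + 1) in each of the 4 libraries, and the horizontal axis the distance in kilobases between the midpoint of a gene and that of Ccl3 on chromosome 11. Ccl3 and Ccl4 lie side by side with both Ets1-/- points below the WT points, Ccl5 lies farther away with overlapping points, and 1100001G20Rik has both Ets1-/- points above.

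T and NK cells also make Ccl3, Ccl4 and Ccl5, so their markers are given beside these genes. Of 14 T and NK cell genes all were tested and 0 were called, 4 had an unadjusted p under 0.05 by limma (Cd247 higher, Ncr1, Klrb1c and Prf1 lower), and no gene of the list was at 0. Ncr1, Klrb1c and Prf1 passed the filter on low values only through their WT level. Without Cd2, which B cells also express, the list summed to 130.4 and 97.3 FPKM in WT and 107 and 142 FPKM in Ets1-/-. The CD3 chains summed to 44.5 and 36.6 FPKM in WT and 47.1 and 56.9 FPKM in Ets1-/-, but of the 3 chains only Cd3g separated the genotypes. Cd4 and Cd8a together had 12.9 and 9.99 FPKM in WT and 10.4 and 13.03 FPKM in Ets1-/-, which overlapped. Of the genes that NK cells express, some had lower values in Ets1-/-, some overlapped and Cd247 was higher. Cd247 had 9.77 and 7.30 FPKM in WT and 15.3 and 23.7 FPKM in Ets1-/- (log2 difference 1.09, limma adjusted p = 0.145). Ncr1, a receptor that defines NK cells, had 2.42 and 0.957 FPKM in WT and 0.0224 and 0.128 FPKM in Ets1-/- (log2 difference -1.27, limma adjusted p = 0.145). Klrb1c had 2.19 and 1.25 FPKM in WT and 0.313 and 0.419 FPKM in Ets1-/- (log2 difference -0.97, limma adjusted p = 0.136). Ncr1, Klrb1c, Gzma and Prf1, a group picked after their values were seen, summed to 21.5 and 10.8 FPKM in WT and 2.26 and 7.47 FPKM in Ets1-/-. Nkg7, which NK and cytotoxic T cells share, had 15.6 and 13.2 FPKM in WT and 15.02 and 18.6 FPKM in Ets1-/-, and Gzmb, a further cytotoxic gene of the list, also overlapped between the genotypes. Ccl3 and Ccl4 were higher in WT replicate 2 than in WT replicate 1, and the sum of those 4 genes was lower there. A difference between 2 libraries cannot show how these genes vary together, so no conclusion is drawn from it. The part of NK cells in the lower Ccl3 and Ccl4 was not tested.

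**Figure D4:**
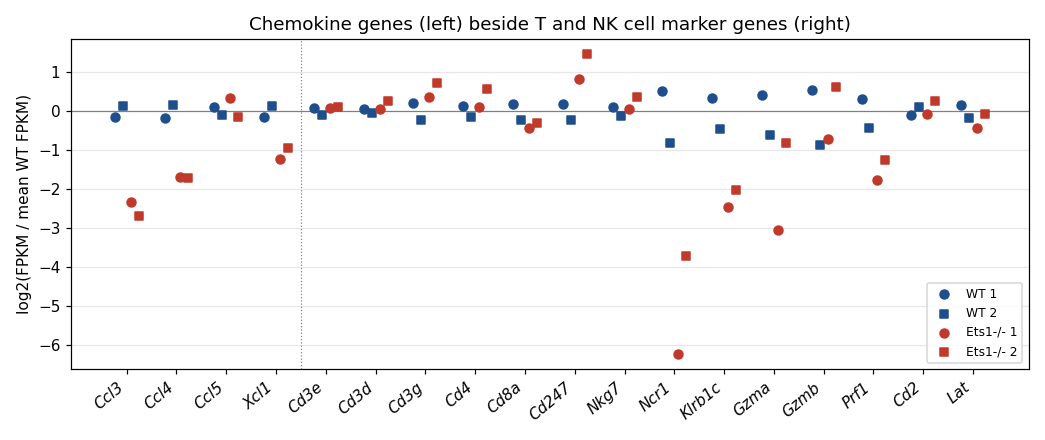
The vertical axis gives the log2 ratio of each library's FPKM to the mean FPKM of the WT libraries, with no pseudocount, for 4 chemokine genes (left) and the 14 T and NK cell genes (right). Ccl3, Ccl4, Xcl1, Ncr1, Klrb1c, Gzma, Prf1 and Cd8a have both Ets1-/- points below the WT points, Cd247 and Cd3g have both above, and those of Ccl5, Nkg7 and Gzmb overlap.

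Cxcl10, an interferon-induced chemokine for Cxcr3-bearing cells, lies on chromosome 5 at 92775664 to 92777915 on the minus strand. Its level was 0.367 and 1.02 FPKM in WT and 0.974 and 0.957 FPKM in Ets1-/-, so the genotypes overlapped and WT replicate 1 was the low library. The gene did not reach the filter and was not tested, and its log2 difference was 0.24. It lies within the span of Art3 on the opposite strand, and reads of the pair cannot be told apart without strand, which the sources used here do not mention for counting. Art3 had 0.104 and 0.492 FPKM in WT and 0.331 and 0 FPKM in Ets1-/-. Of the 8 genes within 100 kb of Cxcl10, 4 were tested and 0 were called, and Cxcl9, another ligand of Cxcr3, had 0.156 and 0.109 FPKM in WT and 0.323 and 0.218 FPKM in Ets1-/-.

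Il10, through which regulatory B cells restrain inflammation, and Il6, which promotes plasma cell and helper T cell responses, were scarcely expressed in these unstimulated cells. Il10 (chromosome 1, 132916422 to 132921551, plus strand) was listed at 0 and at 0.486 FPKM in WT and had 0.945 and 0.584 FPKM in Ets1-/-. Both Ets1-/- libraries were above both WT libraries, but the gap between the nearest libraries was smaller than the spread within either genotype. The gene was not tested, and its log2 difference was 0.53. Il6 (chromosome 5, 30339701 to 30346508, plus strand) had 0.0532 and 0.0303 FPKM in WT and was listed at 0 in both Ets1-/- libraries, so no fold is given. Of the neighbours within 100 kb, 2 of 3 beside Il6 and 1 of 2 beside Il10 were tested, and 0 were called.

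Tnf and Ltb lie side by side on chromosome 17, Ltb at 35331384 to 35333265 on the plus strand and Tnf at 35336326 to 35338952 on the minus strand, with Lta, the third gene of the cluster, 1158 bases beyond Tnf. Ltb encodes the membrane anchor of surface lymphotoxin and was the most abundant of the 10 mediators. It had 745 and 634 FPKM in WT and 465 and 678 FPKM in Ets1-/-, which placed it between rank 150 and rank 217 of 23305 genes in the 4 libraries. Ets1-/- replicate 1 was the lowest library and Ets1-/- replicate 2 lay between the WT libraries. The log2 difference was -0.29 with a standard error of 0.25 (95% confidence interval -0.94 to 0.36, limma adjusted p = 0.763).

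Tnf, the inflammatory cytokine that B cells also need to build follicles, had 10.03 and 6.85 FPKM in WT and 5.45 and 8.41 FPKM in Ets1-/-. The genotypes overlapped in the same manner as for Ltb. The log2 difference was -0.26 with a standard error of 0.26 (95% confidence interval -0.93 to 0.42, limma adjusted p = 0.820), and it was 0.02 without Ets1-/- replicate 1. Within a library Ltb was 74.3 and 92.4 times the level of Tnf in WT and 85.3 and 80.6 times in Ets1-/-, so the ratios overlapped as well. Lta, which encodes the other chain of surface lymphotoxin, had 40.5 and 38.5 FPKM in WT and 29.6 and 24.2 FPKM in Ets1-/-. Both Ets1-/- libraries were lower (log2 difference -0.55, standard error 0.16, unadjusted p = 0.0170, limma adjusted p = 0.209), which did not pass. Of the 17 genes within 100 kb of Tnf and the 17 of Ltb, 15 were tested in each case and 0 were called.

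Tgfb1, on chromosome 7 at 26472021 to 26490096 on the plus strand, was the second most abundant mediator. It had 123 and 115 FPKM in WT and 95.04 and 129.6 FPKM in Ets1-/-, with both WT libraries between the Ets1-/- libraries. The log2 difference was -0.10 with a standard error of 0.20 (95% confidence interval -0.61 to 0.41, limma adjusted p = 0.923), and without Ets1-/- replicate 1 it was 0.12. Of its 11 neighbours within 100 kb, 8 were tested and 0 were called.

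By level, the order in WT was Ltb, Tgfb1 and Ccl5, each apart from the next, followed by Tnf, Ccl3 and Ccl4, whose ranges overlapped. Cxcl10, Ccl22, Il10 and Il6 came last in WT, and the range of Il10 overlapped those of the other three. In Ets1-/- the order was Ltb, Tgfb1, Ccl5, Tnf, Ccl22, Ccl4, Ccl3, Cxcl10, Il10 and Il6. Ccl22 thus stood above Ccl3 and Ccl4 in both Ets1-/- libraries and below them in both WT libraries. Cxcl10 and Il10 differed there by less than the SD of Il10, 0.256 FPKM.

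Receptors of these mediators were examined in the same cells. Of the 15 receptor genes described here 11 were tested and 0 were called by limma, 3 had an unadjusted p under 0.05 (2 higher, 1 lower), and the median log2 difference was 0.13. Over all tested genes 1.70% were called and 13.3% had an unadjusted p under 0.05. Ccr1, a receptor for Ccl3 and Ccl5, had 1.34 and 1.202 FPKM in WT and 5.06 and 3.08 FPKM in Ets1-/- (log2 difference 1.13, limma adjusted p = 0.106). Ackr2, listed under its older symbol Ccbp2, takes up and degrades inflammatory CC chemokines, and had 1.60 and 2.38 FPKM in WT and 7.65 and 4.13 FPKM in Ets1-/- (log2 difference 1.17, limma adjusted p = 0.167). Both were higher in each Ets1-/- library without passing. Macrophages and neutrophils carry Ccr1 as well. The sums of the neutrophil list and of the full monocyte and macrophage list given above were higher in Ets1-/-. Without Lyz2 and Emr1, left out after the values were seen, the sum of the latter list overlapped. The part of these cells in the receptor levels was not tested. Ccr4, the receptor for Ccl22, had 0.363 and 0.187 FPKM in WT and 0.0545 and 0.104 FPKM in Ets1-/- and was not tested. Cxcr3, the receptor for Cxcl10, had 3.95 and 5.74 FPKM in WT and 5.11 and 5.57 FPKM in Ets1-/- (log2 difference 0.13, limma adjusted p = 0.887), with the Ets1-/- libraries inside the WT range.

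Il6ra, the chain that binds Il6, had 12.9 and 10.7 FPKM in WT and 4.99 and 5.21 FPKM in Ets1-/-. Its log2 difference was -1.06 with a standard error of 0.15, and at a limma adjusted p of 0.0507 it fell just outside the call. It was called under 4 of 13 alternatives, among them a crossed pairing of replicates chosen after the data were seen (limma adjusted p = 0.00110). In the other fits to all 4 libraries the limma adjusted p ran from 0.0188 to 0.106. The Il10 receptor chain Il10ra had 97.8 and 76.9 FPKM in WT and 86.2 and 117 FPKM in Ets1-/- (log2 difference 0.21, limma adjusted p = 0.822). Tgfbr2, through which Tgfb1 acts, had 80.4 and 77.4 FPKM in WT and 63.6 and 74.8 FPKM in Ets1-/- (log2 difference -0.19, limma adjusted p = 0.731). The Tgfb1 receptor Tgfbr1 had 5.07 and 6.80 FPKM in WT and 11.3 and 5.66 FPKM in Ets1-/-, so its groups overlapped. The genes for both Tnf receptors differed by -0.00 (Tnfrsf1a) and 0.04 (Tnfrsf1b) on the log2 scale. Ltbr, which receives lymphotoxin on stromal cells, had 0.156 to 0.174 FPKM in WT and 0.417 to 0.454 FPKM in Ets1-/- and was not tested.

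**Figure D5:**
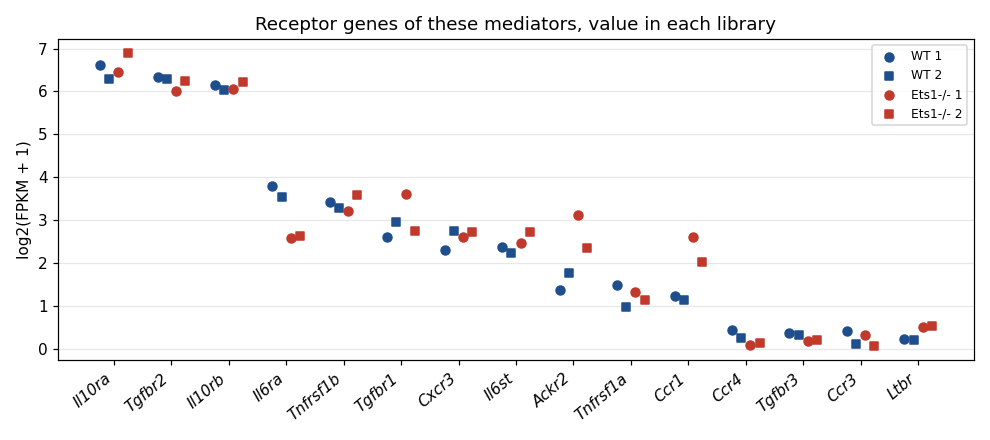
The vertical axis gives log2(FPKM + 1) of the 15 receptor genes, ordered by WT level, with 1 point for each of the 2 WT (blue) and 2 Ets1-/- (red) libraries. Both Ets1-/- points lie above the WT points for 4 genes, among them Ccr1 and Ackr2, and below them for 4 genes, among them Il6ra. The genotypes did not overlap for 41.6% of all tested genes, a share that leaves out untested genes. Of the 15 receptor genes, 4 were not tested.

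Of 25 genes that control these mediators, their transcripts or their products, 21 were tested and 0 were called. Lta was listed among them as the partner chain of Ltb. By limma 4 had an unadjusted p under 0.05, 2 higher and 2 lower, and the median log2 difference was 0.03. Such a p was found for 13.3% of all tested genes. Lta, described above, was 1 of the lower genes, and Itgav, an integrin chain that activates latent Tgfb1, was the other, at 4.35 and 5.001 FPKM in WT and 3.16 and 2.14 FPKM in Ets1-/- (log2 difference -0.65, limma adjusted p = 0.229). Bach2, a repressor that keeps B cells from becoming plasma cells, had 25.2 and 25.6 FPKM in WT and 43.4 and 39.4 FPKM in Ets1-/- (log2 difference 0.68, limma adjusted p = 0.0975). Nfil3, a factor that can activate Il10, had 1.16 and 1.68 FPKM in WT and 2.46 and 2.58 FPKM in Ets1-/- (log2 difference 0.55, limma adjusted p = 0.259). For Bach2 and Nfil3 both Ets1-/- libraries were above both WT libraries.

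A further 71 chemokine and cytokine genes were looked up, of which 19 were tested, 52 fell below the filter and 12 of those were listed at 0 in all 4 libraries. By limma 0 were called and 4 had an unadjusted p under 0.05, 1 higher and 3 lower, with a median log2 difference of 0.04. Il18, an inflammatory cytokine released after cleavage by caspase-1, had 4.33 and 4.45 FPKM in WT and 16.1 and 11.1 FPKM in Ets1-/-, a ratio of 3.10 between the means (log2 difference 1.42, standard error 0.21, limma adjusted p = 0.0507). Il18 was called with a pseudocount of 0.5 or 0.1, quantile normalization, robust variance estimation and the replicate block (limma adjusted p = 0.0220). A crossed pairing of replicates chosen after the data were seen also called it (0.00025). In the other fits to all 4 libraries the limma adjusted p ran from 0.0127 to 0.106. Ebi3, the chain that IL-27 and IL-35 share, had 12.8 and 9.58 FPKM in WT and 4.48 and 4.49 FPKM in Ets1-/- (log2 difference -1.14, standard error 0.18, limma adjusted p = 0.0578). Both genes separated the genotypes and missed the threshold on the adjusted p by little.

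Il12a, which pairs with Ebi3 in IL-35, had 22.5 and 17.9 FPKM in WT and 19.1 and 21.4 FPKM in Ets1-/- (log2 difference 0.01, limma adjusted p = 0.998), while Il27 did not exceed 0.0937 FPKM. Xcl1, a chemokine of NK and CD8 T cells that was named after its values were seen, had 3.78 and 4.58 FPKM in WT and 1.79 and 2.16 FPKM in Ets1-/- (log2 difference -0.80, limma adjusted p = 0.111). Both Ets1-/- libraries of Xcl1 lay below both WT libraries. Tnfsf9, the ligand of the T cell receptor 4-1BB, had 1.60 and 1.23 FPKM in WT and 0.713 and 0.836 FPKM in Ets1-/- (log2 difference -0.44, limma adjusted p = 0.373). Tnfsf9 passed the filter on low values only through its WT level. Of the abundant mediators, Mif had 192 and 236 FPKM in WT and 230.4 and 268 FPKM in Ets1-/- (log2 difference 0.22, limma adjusted p = 0.751), and Il16, a T cell attractant, had 90.5 and 79.7 FPKM in WT and 58.1 and 77.1 FPKM in Ets1-/- (log2 difference -0.34, limma adjusted p = 0.59). Osm had 7.11 and 4.57 FPKM in WT and 4.83 and 7.43 FPKM in Ets1-/- (log2 difference 0.06, limma adjusted p = 0.979). The groups overlapped for Mif and Osm, and for Il16 both Ets1-/- libraries were the lower ones. Markers of other B cell states were examined as well. For plasma cells 0 of 5 tested genes were called, and 2 had an unadjusted p under 0.05 by limma, both higher (Sdc1 and Prdm1). Prdm1 passed the filter on low values only through its Ets1-/- level. Xbp1, Irf4 and the untested Tnfrsf17 were lower in both Ets1-/- libraries. The plasma cell list summed to 168 and 189 FPKM in WT and 138 and 152 FPKM in Ets1-/-, with a median log2 difference of -0.17. For marginal zone and B-1 cells 1 of 8 genes was called, which was Plscr1, higher in Ets1-/-. Of these 8 genes 4 had an unadjusted p under 0.05, 2 of them higher (Plscr1 and Zbtb32) and 2 lower (Cr2 and Dtx1). Cd1d1, S1pr3, Cd9 and Cd5 overlapped between the genotypes. Over all tested genes 1.70% were called and 13.3% had an unadjusted p under 0.05.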

How the data were processed

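RNA of sorted follicular B cells from 2 WT and 2 Ets1-/- spleen samples was sequenced. Per the labels, the authors aligned reads to mm9 with TopHat2 2.0.13 and deposited 1 FPKM value per gene and library from Cuffdiff, whose version, annotation and scaling are not given in the sources used here. Of 23309 entries, 4 with repeated symbols were dropped. The 10949 genes that averaged 1 FPKM or more in WT or in Ets1-/- were compared as log2(FPKM + 1) with limma 3.58.1 (R 4.3.3, eBayes with a trend) over all 4 libraries, with Benjamini-Hochberg adjustment. Tests for read counts were not used because the files hold FPKM. The fit was tested on simulated data. With 2 samples a genotype, p-values rest on variance shared across genes, and exact permutation cannot reach the threshold. Other values were computed in Python 3.11.15. Positions came from GENCODE M1 of mm9, which matched 20978 of 23305 symbols. Depth is given as a multiple of that of WT replicate 1, read from genes with very low FPKM.

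The 10 mediators and all gene lists were chosen with earlier results of these data known. Named genes were the mediators, list members that were called or had an unadjusted p under 0.05, receptors of a mediator, other chemokines and cytokines with a mean of at least 5 FPKM, chromosomal neighbours and defining markers. A receptor gene of the list is not reported here. Alternatives covered pseudocount, filter, scaling, variance estimation, the replicate block and each library left out. A crossed pairing of the replicates was chosen after the data were seen and is counted among the 13.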

Additional observations from a re-analysis of the deposited data

How the results depend on the processing

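The log2 differences of Ccl22, Ccl3 and Ccl4 kept their direction under all 13 alternatives. With no filter on low values the differences were 1.61, -1.90 and -1.34 and none passed the adjusted p, so 0 mediators and 75 genes in all were called; the number of genes tested was larger there. With 1 library left out the lone sample of a genotype was assumed to vary like the other genotype, and 0 to 1 mediators, 99 to 116 genes and 0 to 1 other chemokines and cytokines were called, with receptors and control and processing genes at 0. The log2 differences then ran from 1.45 to 1.77 for Ccl22, -2.04 to -1.77 for Ccl3, -1.49 to -1.19 for Ccl4, -0.13 to 0.33 for Ccl5, -0.53 to 0.02 for Tnf, -0.56 to -0.02 for Ltb, -0.32 to 0.12 for Tgfb1, -0.04 to 0.52 for Cxcl10 and 0.24 to 0.81 for Il10. Those of Ccl5 (-0.13), Tnf (0.017) and Tgfb1 (0.12) turned without Ets1-/- replicate 1, and the cause was not tested. In fits to all 4 libraries, the crossed pairing aside, the limma adjusted p ran from 0.00509 to 0.0527 for Ccl22. It ran from 0.00214 to 0.0565 for Ccl3 and from 0.00957 to 0.0948 for Ccl4. The crossed pairing, chosen after the data were seen, gave 0.000396 for Ccl22, 2.33e-05 for Ccl3 and 0.000396 for Ccl4. Robust variance estimation called 305 genes, 2 receptors and 2 other chemokines and cytokines, against 186, 0 and 0. A pseudocount of 0.5 or 0.1 called 1 receptor and 1 other chemokine or cytokine, and quantile normalization called 1 of the latter. With a pseudocount of 0.1 the untested differences were 0.56 for Cxcl10 and 1.80 for Il10, which the pseudocount sets at such levels.

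The genotypes share replicate numbers, but deviations of same-numbered libraries correlated at -0.21, so the numbers are not shown to pair the samples. The replicate block called 3 mediators, 0 receptors and 1 other chemokine or cytokine, Il18, and it also called 1100001G20Rik; it changed the call of no mediator. The crossed pairing, chosen after seeing the data, called 3 mediators, 3 receptors, 2 other chemokines and cytokines and 409 genes in all. No alternatives are given for Il6, which was listed at 0 in both Ets1-/- libraries. For Cxcl10 and Il10 they were the pseudocounts, each library left out and the fit with no filter on low values. That fit gave a limma adjusted p of 0.776 for Cxcl10 and 0.478 for Il10. Values near or below 1 FPKM rest on few fragments, and the depth behind them is known only in relative terms.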
